A study of Mus musculus with 31 samples.

Results

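The acetylcholine receptor genes and Ache of the mouse hippocampus were described here as 10 named genes out of 23007 gene names in the expression table. They were the 5 muscarinic receptor genes Chrm1 to Chrm5, the 4 nicotinic receptor subunit genes Chrna4, Chrna5, Chrna7 and Chrnb2, and the esterase gene Ache. The family was chosen by the level of Chrna7 in fasted mice, which was near 0, so the Chrna7 differences that involve fasted mice are given as values with no test. Each name was represented by its locus with the highest mean over the 31 mice, and Ache was the only member name found at more than 1 locus (2 loci). The question was whether the low Chrna7 level of fasted mice was shared by the rest of the family.

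RNA was sequenced from whole hippocampi of 3-month-old male mice on the C57BLKS/J background. The db/db-IF group (n = 10) held mice homozygous for the diabetes mutation of the leptin receptor gene Lepr that were deprived of food for 24 h on alternate days over 28 days. The db/db group (n = 10) held homozygous mice with free access to food, and the db/m group (n = 11) held heterozygous littermates with free access to food, which are not diabetic. No fasted db/m mice were analysed here, so an effect of fasting was measured on the diabetic background alone. Groups follow the labels, from which the study's text differs for a single mouse between db/db and db/db-IF. The text counts that mouse in db/db-IF and the labels count it in db/db, and which mouse it is was not stated. Values are FPKM, the number of fragments scaled to transcript length and to sequencing depth, and each mouse is 1 library. In a whole hippocampus, fewer cells of a type and less RNA per cell cannot be told apart.

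Acetylcholine reaches the hippocampus mainly from neurons of the medial septum and the diagonal band, whose cell bodies lie outside it. Muscarinic receptors are G protein-coupled: M1, M3 and M5 act through Gq and phospholipase C, and M2 and M4 through Gi and Go. Nicotinic receptors are ligand-gated cation channels built of subunits around a pore, mainly homomeric alpha7 receptors and heteromeric alpha4-beta2 receptors in the brain, to which alpha5 can be added as an accessory subunit. Acetylcholinesterase, the product of Ache, ends the signal by hydrolysing acetylcholine.

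The promoter windows of 3 nicotinic subunit genes are shown because these 3 genes covered the range of behaviour in the data. Chrna7 and Chrna4 were each found at a high or a low level depending on the mouse, and Chrnb2 stayed within a narrow range. Each window holds 250 bases before and 50 after an annotated start, from RefSeq on build GRCm38.p6, 5′ to 3′ on the gene's strand, which is the minus strand for all 3. Capitals mark the GC box GGGCGG, searched on both strands, where its complement reads CCGCCC.
Chrna7, chr7:63212477-63212776: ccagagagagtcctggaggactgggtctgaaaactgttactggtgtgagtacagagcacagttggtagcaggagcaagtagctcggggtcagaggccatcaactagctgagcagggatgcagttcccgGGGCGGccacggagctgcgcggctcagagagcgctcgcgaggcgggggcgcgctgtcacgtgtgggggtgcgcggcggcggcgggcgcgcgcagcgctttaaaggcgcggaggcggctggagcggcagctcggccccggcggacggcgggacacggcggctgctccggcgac
Chrna4, chr2:181039128-181039427: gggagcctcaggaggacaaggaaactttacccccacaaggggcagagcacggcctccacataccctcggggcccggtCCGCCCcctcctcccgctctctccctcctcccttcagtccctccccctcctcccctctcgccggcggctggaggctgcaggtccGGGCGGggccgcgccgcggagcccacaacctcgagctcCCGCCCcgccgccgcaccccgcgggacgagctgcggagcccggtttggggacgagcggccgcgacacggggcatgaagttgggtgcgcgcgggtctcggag
Chrnb2, chr3:89764583-89764882: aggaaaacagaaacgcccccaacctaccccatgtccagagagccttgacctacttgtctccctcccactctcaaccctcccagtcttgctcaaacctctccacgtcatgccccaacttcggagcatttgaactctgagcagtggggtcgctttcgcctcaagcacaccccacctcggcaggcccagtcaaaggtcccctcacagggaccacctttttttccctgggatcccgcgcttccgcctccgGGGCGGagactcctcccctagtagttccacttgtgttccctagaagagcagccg

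The Chrna7 window held 1 GC box and 35 CG dinucleotides at 70.0% GC, the Chrna4 window 3 GC boxes and 33 CG dinucleotides at 74.3% GC, and the Chrnb2 window 1 GC box and 12 CG dinucleotides at 59.0% GC. Over all 32851 promoter windows of 300 bases in the reference table, 35.7% held a GC box, the median number of CG dinucleotides was 7 and the median GC content was 52.7%. The E-box CACGTG, which reads the same on both strands, was found once in the Chrna7 window and not in the other two, against 7.15% of all windows. It was also found once in the Ache window, which is not shown. The Ache and Chrm4 windows each held 30 CG dinucleotides and 4 GC boxes, and the Chrm5 window held 3 and 0. Whether these letters go with the behaviour of a gene was not tested. A match is a description of these letters and not of a bound factor. The Chrna4 window lies inside the annotated span of the gene (chr2:181022311-181043579), so the start it describes is not the most upstream one. Windows were found for 9 of the 10 members.

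In the db/m group the members differed widely in level. Chrm1, the main Gq-coupled muscarinic receptor gene of hippocampal pyramidal cells, averaged 17218 ± 2194 FPKM (SD, n = 11). It was the 6th highest of the 27094 loci by mean over all mice. Chrm1 lies on chr19:8664005-8683606 among other loci with very high values: 10 of the 34 named loci within 500 kb averaged above 1000 FPKM, against 0.828% of all 19809 named loci. How much of the value at this locus comes from Chrm1 transcripts was not tested, so it may not measure Chrm1 alone. Chrm3 (82.8 ± 10.4 FPKM) and Ache (76.0 ± 5.76 FPKM) followed, and their ranges over the db/m mice overlapped. Chrm4 (22.1 ± 4.30 FPKM), Chrna7 (20.1 ± 2.39 FPKM), Chrnb2 (16.6 ± 0.924 FPKM) and Chrna4 (11.2 ± 4.81 FPKM) came next, each overlapping its neighbour in this order. Chrm2 (2.72 ± 1.76 FPKM) and Chrna5 (2.28 ± 0.401 FPKM) also overlapped. Chrm5 was lowest at 0.392 ± 0.195 FPKM and lay below every Chrna5 value.

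**Figure D1:**
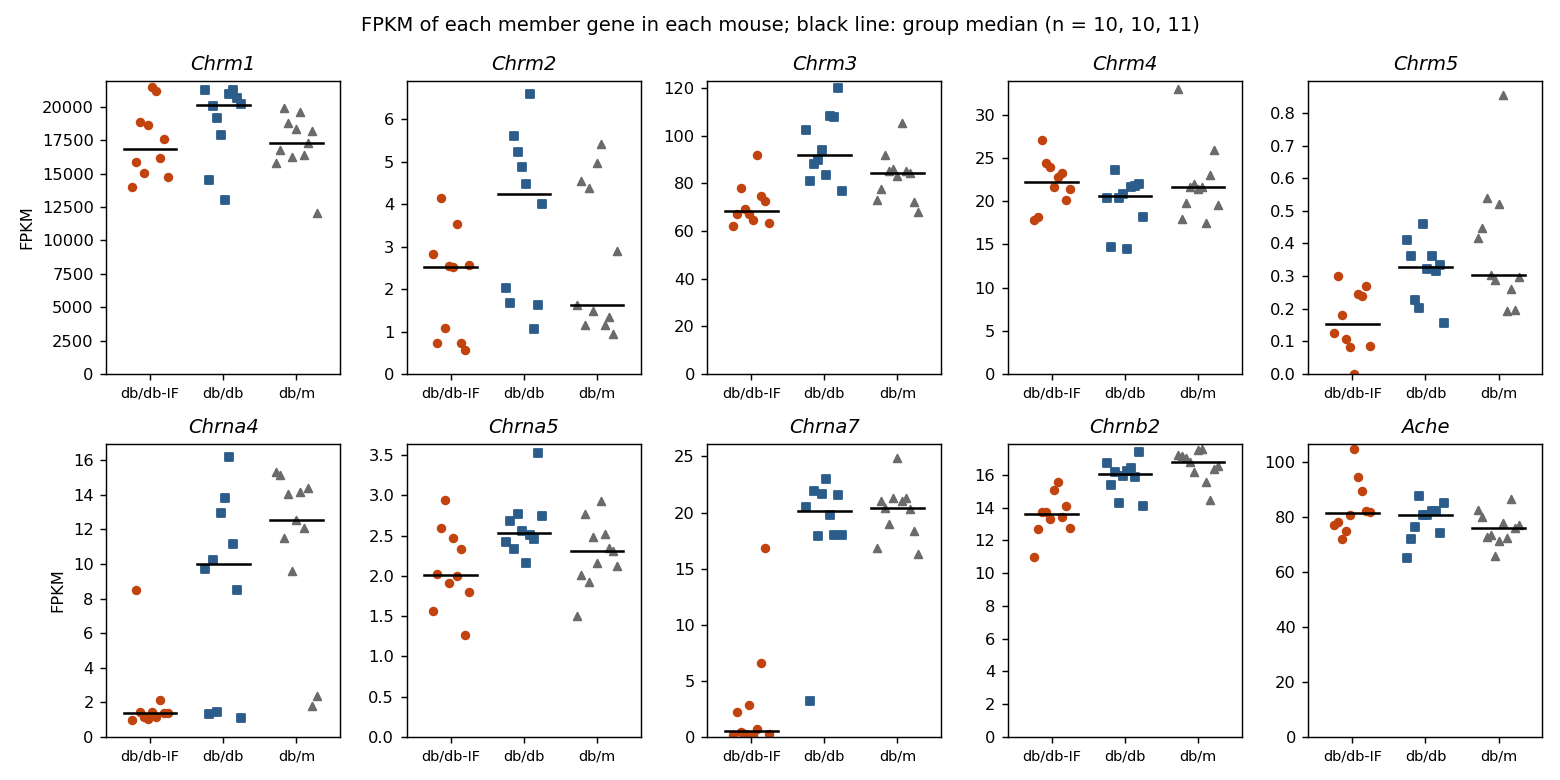
FPKM (vertical axis, starting at 0) of each of the 10 member genes in each mouse, by group (db/db-IF, db/db and db/m, n = 10, 10 and 11). Points are mice and black lines are group medians. Chrna7 was at or below 6.56 FPKM in 9 db/db-IF mice, and Chrna4 at or below 2.14 FPKM in 9 db/db-IF mice, while Chrm1, Chrm4 and Ache overlapped broadly between groups.

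Chrna7, which encodes the subunit of the homomeric alpha7 channel (chr7:63098692-63212526), had a lowest value of 0.125, a median of 0.532 and a highest value of 16.8 FPKM in db/db-IF mice. In db/db mice these values were 3.20, 20.1 and 22.9 FPKM, and in db/m mice 16.3, 20.4 and 24.9 FPKM. The db/db-IF and db/db groups overlapped through db/db-IF mouse 10 (16.8 FPKM) and db/db mouse 2 (3.20 FPKM). Since the study's text counts an unnamed db/db mouse as fasted, the group of any single db/db mouse, mouse 2 included, could not be checked. The fasted mice were not uniform. Of their values 6 lay under 1 FPKM, those of mice 2 and 6 were 2.19 and 2.86 FPKM, that of mouse 9 was 6.56 FPKM, and that of mouse 10 stood within the db/m range. These values chose the family, and the mean difference on the log2(FPKM + 1) scale of -2.87 from db/db mice and -3.09 from db/m mice is given as a description. Between the free-fed groups, Chrna7 did not differ by the test: the log2 difference of db/db from db/m was -0.22 (SE 0.37, adjusted p = 0.796, limma), with a 95% interval of -0.98 to 0.54. Without db/db mouse 2 this difference was 0.01.

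Chrna4, the alpha subunit of the heteromeric channel, was the member closest to Chrna7 in its pattern over the fasted mice. Its lowest, median and highest values were 0.955, 1.38 and 8.49 FPKM in db/db-IF mice, 1.10, 9.97 and 16.2 FPKM in db/db mice, and 1.76, 12.5 and 15.3 FPKM in db/m mice. No value in any group lay between 2.39 and 8.49 FPKM. On that division the high level was held by db/db-IF mouse 2 alone among the fasted mice, by all db/db mice except 2, 4 and 10, and by all db/m mice except 10 and 11. The low level was therefore seen in each group and not in fasted mice alone. Chrna4 was lower in db/db-IF mice by a log2 difference of -1.50 from db/db (SE 0.41, adjusted p = 0.00355, limma across all loci) and of -2.0 from db/m (SE 0.40, adjusted p = 0.000142). The difference of db/db from db/m was -0.50 (SE 0.40, adjusted p = 0.525). The libraries fell into 2 sets by the read quality given for the study, lower and higher replicate numbers within each group. In the lower set alone the log2 difference of Chrna4 from db/db was -1.12 (adjusted p = 0.114), and in the higher set it was -1.87 (adjusted p = 0.0405). Against db/m it was -2.27 (adjusted p = 0.00251) in the lower set and -1.65 (adjusted p = 0.0579) in the higher set.

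To set both genes on 1 scale, each mouse was compared with 50% of the db/m median of the gene, a level chosen after the values were seen. In db/db-IF mice, Chrna7 lay below it in 9 of 10 and Chrna4 in 9 of 10. In db/db mice the counts were 1 of 10 for Chrna7 and 3 of 10 for Chrna4, and in db/m mice 0 of 11 and 2 of 11. Among all tested loci, 19 of 17139 (0.111%) lay below their own level in at least 9 db/db-IF mice, Chrna7 and Chrna4 included. The limit of 9 mice is the count that both genes reached, and Chrna7 chose the family. This share is therefore a description and not a test. Both genes were low in 8 db/db-IF mice and 1 db/db mouse. The fasted mouse above this level for Chrna7 was not the one above it for Chrna4: db/db-IF mouse 10 had Chrna7 at 16.8 FPKM and Chrna4 at 1.36 FPKM, and db/db-IF mouse 2 had Chrna4 at 8.49 FPKM and Chrna7 at 2.19 FPKM. Of the 5 free-fed mice with low Chrna4, 4 had Chrna7 at 16.3 FPKM or above. Within groups, the log2 values of Chrna7 and Chrna4 correlated with a Pearson r of 0.303 over 31 mice, as a description.

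**Figure D2:**
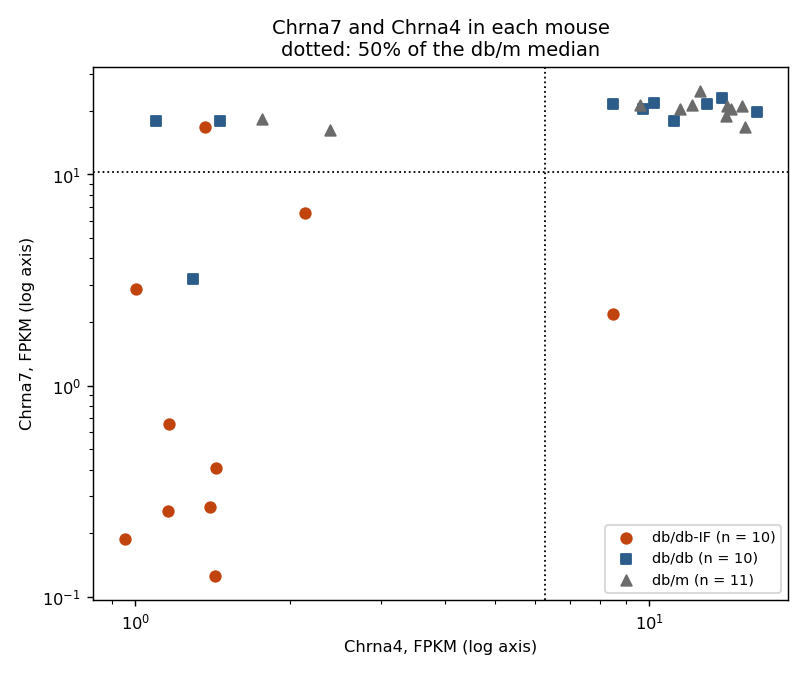
Chrna7 (vertical, FPKM, log axis) against Chrna4 (horizontal, FPKM, log axis), 1 point per mouse, with dotted lines at 50% of the db/m median of each gene. Of the 10 db/db-IF mice, 8 lie in the lower left corner, where both genes are low, with 1 db/db mouse, and 9 of the 11 db/m mice lie in the upper right.

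Apart from Chrna4, no member lay under 50% of its db/m median in as many db/db-IF mice as Chrna7. No mouse in any group lay under 50% of the db/m median for Chrm1, Chrm3, Chrm4, Chrna5, Chrnb2 or Ache. Chrm2, the Gi-coupled receptor gene, lay under it in 3 of 10 db/db-IF mice and in 0 of 10 db/db and 0 of 11 db/m mice. Chrm5 lay under its level, which was 0.151 FPKM, in 5 of 10 db/db-IF mice and in no other mouse.

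The main test was a limma fit of log2(FPKM + 1) over the 17139 loci with more than 1 FPKM in at least 10 mice, with p-values adjusted over all of them and called at 0.05. Of the 10 members, 9 passed this filter and Chrm5 did not. In db/db-IF against db/db, 4 of the 8 members tested (Chrna7 left out) were lower and 0 were higher, where 27.4% of all loci tested were lower and 23.7% were higher. Against db/m, 3 of 8 were lower and 0 higher, where 29.4% of all loci were lower. Against db/m and db/db combined, 3 of 8 were lower and 0 higher, where 30.9% of all loci were lower. In db/db against db/m, 0 of 9 were called by limma, where 5.75% of all loci were called in either direction, and at an unadjusted p under 0.05 Chrm3 alone passed (p = 0.0204). The comparisons of db/db-IF mice share those mice and are not independent of each other. Calls were common among all loci in the fasted comparisons, and the counts of members are to be read beside these shares.

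Chrm3, a Gq-coupled receptor gene, was the one muscarinic member called among the 4 that passed the filter. Its lowest, median and highest values were 62.0, 68.2 and 92.1 FPKM in db/db-IF mice, 76.9, 91.9 and 120 FPKM in db/db mice, and 67.8, 84.5 and 105 FPKM in db/m mice. Among the 10 db/db-IF values, 8 lay below every db/db value, so the groups overlapped through 2 fasted mice. The log2 difference from db/db was -0.41 (SE 0.08, adjusted p = 0.00013, limma) and that from db/m was -0.22 (SE 0.08, adjusted p = 0.0204). In the lower read-quality set these differences were -0.40 (adjusted p = 0.000837) and -0.26 (adjusted p = 0.00751), and in the higher set -0.42 (adjusted p = 0.0561) and -0.17 (adjusted p = 0.394). The difference from db/m did not pass with libraries scaled to equal medians (-0.18, adjusted p = 0.0704) or quantile normalized (-0.15, adjusted p = 0.0803). The db/db mice were above the db/m mice by 0.19 (SE 0.08, adjusted p = 0.151), which did not pass.

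Chrnb2, the beta subunit that pairs with alpha4 (chr3:89753448-89764632, counted in 1 locus with the transcript 4632404H12Rik), varied least among the nicotinic members. Its lowest, median and highest values were 11.0, 13.6 and 15.6 FPKM in db/db-IF mice, 14.1, 16.1 and 17.4 FPKM in db/db mice, and 14.5, 16.8 and 17.6 FPKM in db/m mice. Of 10 db/db-IF values, 8 lay below all db/db values and 8 below all db/m values. The log2 difference was -0.21 from db/db (SE 0.05, adjusted p = 0.000426, limma) and -0.28 from db/m (SE 0.05, adjusted p = 1.39e-05). Chrnb2 was thus lower by much less than its partner Chrna4. By read-quality set the difference from db/db was -0.27 (adjusted p = 0.00267) in the lower and -0.16 (adjusted p = 0.12) in the higher set, and that from db/m was -0.37 (adjusted p = 0.000127) and -0.17 (adjusted p = 0.0972).

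Chrna5, the accessory alpha subunit, had values of 1.26, 2.01 and 2.94 FPKM (lowest, median, highest) in db/db-IF mice, 2.16, 2.53 and 3.53 FPKM in db/db mice, and 1.5, 2.30 and 2.93 FPKM in db/m mice. It was lower than in db/db mice by a log2 difference of -0.24 (SE 0.08, adjusted p = 0.0199, limma), and its difference from db/m mice of -0.09 (SE 0.08, adjusted p = 0.35) did not pass. The difference from db/db did not pass within either read-quality set (-0.16, adjusted p = 0.298 in the lower, and -0.31, adjusted p = 0.0782 in the higher) or with libraries scaled to equal medians (-0.20, adjusted p = 0.0578).

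**Figure D3:**
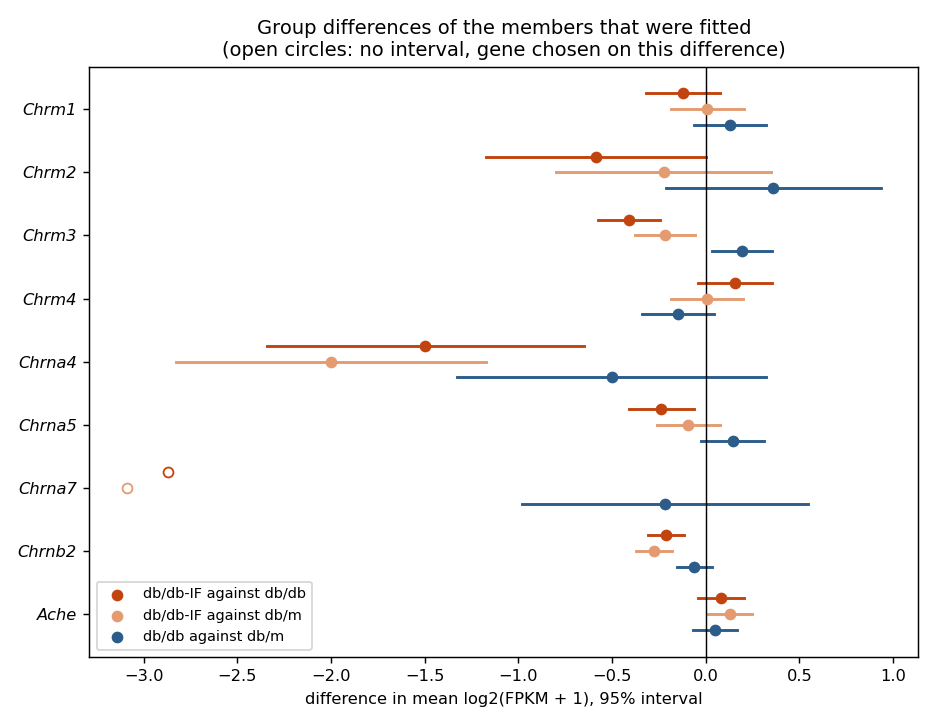
Difference in mean log2(FPKM + 1) (horizontal axis) with 95% limma intervals for the 9 fitted members, for the fasted mice against each free-fed group and for the free-fed groups against each other. Open circles mark Chrna7 in the fasted comparisons (-2.87 and -3.09), which carry no interval because the gene was chosen on them. The Chrna4, Chrm3 and Chrnb2 intervals of the fasted comparisons lie below 0, and those of Chrm1, Chrm2 and Chrm4 cross it.

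Chrm1, Chrm2, Chrm4 and Ache did not pass the test in any of the comparisons. Chrm1 had values of 13996, 16883 and 21465 FPKM (lowest, median, highest) in db/db-IF mice, against medians of 20113 FPKM in db/db mice and 17283 FPKM in db/m mice. Its log2 difference from db/db was -0.12 (95% interval -0.32 to 0.08) and from db/m 0.01 (-0.18 to 0.20), so that a change of more than about 0.32 on the log2 scale was outside both intervals. With quantile normalization Chrm1 passed as lower than in db/db mice (-0.35, adjusted p = 0.0302). Chrm4, the Gi-coupled receptor gene that is best known from the striatum, differed by 0.15 from db/db (-0.04 to 0.35) and by 0.01 from db/m (-0.19 to 0.20), and its locus also holds the predicted gene Gm39876.

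Chrm2 was spread more widely within groups on the log2 scale than the other muscarinic members above the filter. Its lowest, median and highest values were 0.570, 2.53 and 4.14 FPKM in db/db-IF mice, 1.05, 4.24 and 6.60 FPKM in db/db mice, and 0.945, 1.63 and 5.41 FPKM in db/m mice. All 3 groups held mice near 1 FPKM and mice above 4 FPKM. All 10 db/db-IF values lay below the db/db median, and the log2 difference of -0.58 from db/db (SE 0.29, adjusted p = 0.0892, limma; 95% interval -1.17 to 0.00) did not pass. Without db/db mouse 8, which had 1.05 FPKM, it passed at -0.70 (adjusted p = 0.0399). The difference from db/m was -0.22 (adjusted p = 0.514). Its within-group correlation was -0.207 with Chrna7 and 0.0392 with Chrna4.

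Chrm5, the rarest muscarinic gene, had no value above 1 FPKM. Its lowest, median and highest values were 0, 0.153 and 0.301 FPKM in db/db-IF mice, 0.155, 0.328 and 0.460 FPKM in db/db mice, and 0.193, 0.303 and 0.855 FPKM in db/m mice. All db/db-IF values lay below both other medians. In a fit with no filter on low values the log2 difference was -0.18 from db/db (adjusted p = 0.0251, limma) and -0.25 from db/m (adjusted p = 0.00137). At such levels a few reads set a value, and the number of reads behind it is unknown.

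Ache, on chr5:137288247-137294466, was counted in a locus that also holds Ufsp1 and Mir8116, and its values cannot be separated from theirs. Its lowest, median and highest values were 72.0, 81.3 and 105 FPKM in db/db-IF mice, 65.1, 80.9 and 87.7 FPKM in db/db mice, and 65.9, 75.9 and 86.7 FPKM in db/m mice. The log2 difference was 0.08 from db/db (SE 0.06, adjusted p = 0.264, limma) and 0.13 from db/m (SE 0.06, adjusted p = 0.0596), and neither passed. With libraries scaled to equal medians Ache passed as higher than in db/m mice (0.17, adjusted p = 0.0347). The second Ache locus stayed between 0.0344 and 0.47 FPKM.

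Several features of the libraries were set beside the groups. The first was a slope of each mouse's log2 values on log2 transcript length, over 12118 loci. The slope had a range of -0.24 to -0.04 in db/db-IF mice, -0.04 to 0.07 in db/db mice and 0.00 to 0.08 in db/m mice, with no overlap between db/db-IF and the other mice, so the slope and the fasted group cannot be told apart. With the slope as a term, 0 of 8 members were called by limma in db/db-IF against db/db and 0 of 8 against db/m. In that fit 314 and 448 of the 17139 loci were called, so calls were rare among all loci and the 0 says nothing particular about the members. The log2 difference of Chrna4 was then -0.64 (SE 0.66, adjusted p = 0.678) from db/db and -1.07 (SE 0.70, adjusted p = 0.454) from db/m. That of Chrm3 was -0.20 from db/db and 0.01 from db/m, and that of Chrnb2 was -0.16 and -0.22. Chrna5 lost its call against db/db with a larger difference of -0.36 (SE 0.14, adjusted p = 0.162). Ache changed sign to -0.11 from db/db and -0.08 from db/m. The others were lists of marker genes of cell types and of tissue next to the hippocampus. Their counts are to be read beside all loci, of which 27.4% were lower and 23.7% higher in db/db-IF than in db/db mice. The summed FPKM of 8 cortex and subiculum marker genes had a range of 176 to 783 in db/db-IF mice, 577 to 837 in db/db mice and 635 to 849 in db/m mice, and 3 of these 8 genes were lower and 0 higher in db/db-IF than in db/db mice. Summed interneuron markers had medians of 6001, 4592 and 4657 FPKM in db/db-IF, db/db and db/m mice, with 4 of 11 genes higher and 2 lower against db/db. The median log2 difference of these 11 genes was -0.15 from db/db, so the sum and the median gene went different ways. Against db/m 4 were higher and 6 lower, with a median of -0.34, where 4494 and 5038 of the 17139 loci were higher and lower. Summed astrocyte markers had medians of 2134, 2871 and 3233 FPKM in these groups, with 2 of 7 lower and 1 higher. Of 7 endothelial genes 4 were lower and 0 higher, and of 11 tested thalamus and habenula genes 3 were lower and 0 higher, against db/db. The part of the cell-type and cortex lists in the member differences was not tested. All 12 marker genes of hippocampal principal neurons passed the filter, with summed medians of 756, 757 and 694 FPKM in db/db-IF, db/db and db/m mice. Of these 12 genes, 3 were lower and 1 higher in db/db-IF than in db/db mice. Against db/m, 0 were lower and 4 higher, where 5038 and 4494 of the 17139 loci were lower and higher. The sums of FPKM per library ran between 1385521 and 1462222, and 16242 to 17172 loci per library exceeded 1 FPKM.

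**Figure D4:**
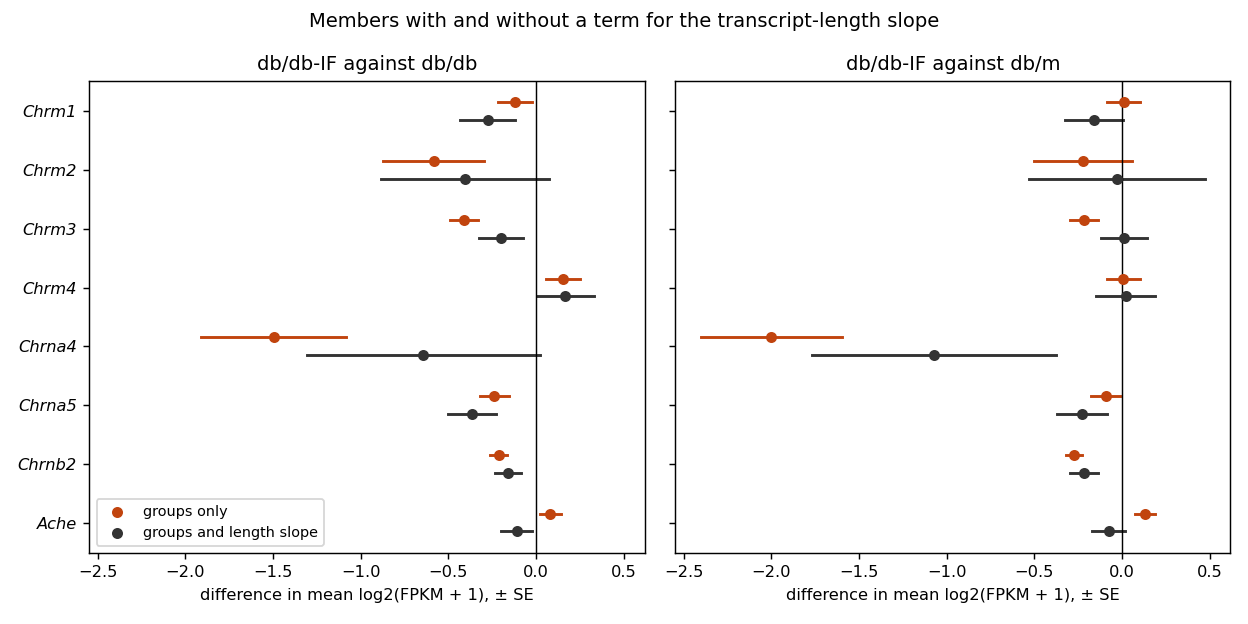
Difference in mean log2(FPKM + 1) (horizontal axis, with SE bars) of 8 members in a fit with groups only and in a fit with groups and each mouse's transcript-length slope, for the fasted mice against db/db mice (left) and against db/m mice (right). With the slope, Chrna4 was at -0.64 and -1.07 with wider bars, and Ache lay below 0.

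Markers of the thalamus and habenula, structures next to the hippocampus that are rich in some nicotinic subunits, stood highest in db/m mice 11, 2 and 1, with mean log2 values of 3.81, 3.56 and 3.24. Mouse 11 of the db/m group also had the lowest Chrna7 (16.3 FPKM), Chrm1 and Chrm3 (67.8 FPKM) values of its group and the second lowest Chrna4 value (2.39 FPKM). Mice 1 and 2, by contrast, had the highest Chrna4 values of the group (15.3 and 15.2 FPKM). Over the 31 mice, the within-group correlation with this marker mean was -0.0176 for Chrna4, 0.0823 for Chrna7, -0.369 for Chrm1 and -0.202 for Chrm3, as a description. Without db/m mice 2 and 11 the log2 difference of db/db-IF from db/m was -2.12 for Chrna4 (adjusted p = 0.000139, limma), -0.27 for Chrnb2 (adjusted p = 7.63e-05) and -0.26 for Chrm3 (adjusted p = 0.00973), and 3 of 8 members were again called.

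Of 12 further nicotinic subunit genes, 7 were found in the table and 2 passed the filter. Chrnb1, a subunit best known from muscle, had a level close to that of Chrnb2, with means of 15.4 ± 1.32, 17.3 ± 2.15 and 19.9 ± 1.69 FPKM in db/db-IF, db/db and db/m mice. It was lower in db/db-IF mice by -0.15 from db/db (SE 0.06, adjusted p = 0.0421, limma) and by -0.35 from db/m (SE 0.06, adjusted p = 2.53e-05). The db/db mice differed from db/m by -0.19 (SE 0.06, adjusted p = 0.0513), just short of the threshold. Chrna2, a subunit of interneurons of the stratum oriens, had medians of 1.03, 0.901 and 1.06 FPKM in the db/db-IF, db/db and db/m groups, and differed by 0.10 from db/db (adjusted p = 0.231). Chrna1, Chrna3, Chrna10, Chrnb3 and Chrnb4 had medians below 0.41 FPKM in every group. Chrnb4 and Chrna3, which share a gene cluster with Chrna5, were highest in db/db-IF mouse 5, at 4.04 and 0.458 FPKM, and next in db/m mouse 2, at 0.688 and 0.367 FPKM.

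**Figure D5:**
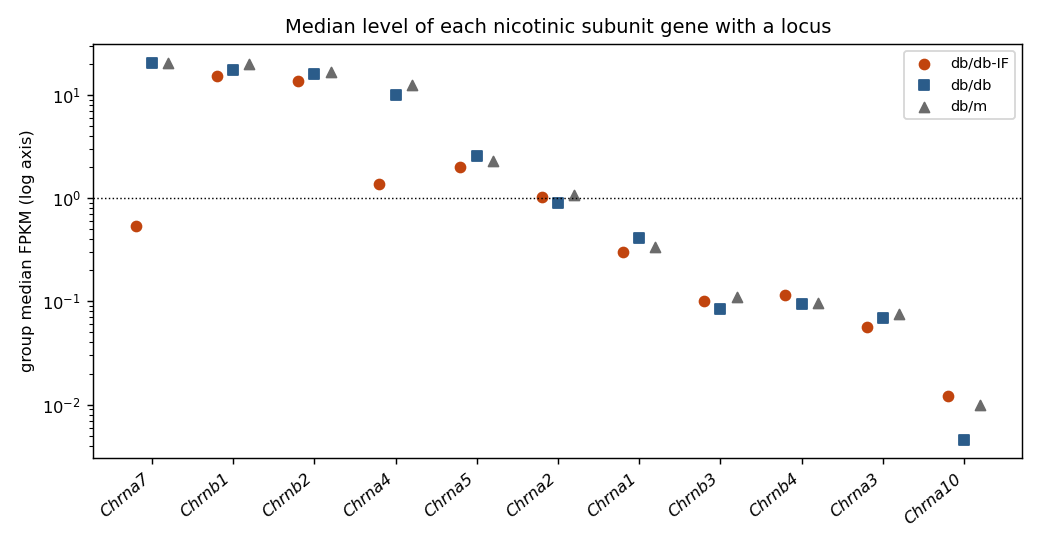
Group median FPKM (vertical, log axis) of 11 nicotinic subunit genes, with db/db-IF, db/db and db/m medians side by side and a dotted line at 1 FPKM. The db/db-IF median is far below the others for Chrna7 (0.532 FPKM) and Chrna4 (1.38 FPKM), and the groups lie close together for Chrnb1, Chrnb2, Chrna5 and Chrna2.

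Genes of the cholinergic neuron itself had low medians. Slc5a7, the choline transporter of cholinergic terminals, had medians of 0.0816, 0.172 and 0.216 FPKM in db/db-IF, db/db and db/m mice. Isl1, a transcription factor of several neuron classes, and Ngfr, the low-affinity neurotrophin receptor, had medians below 0.47 FPKM in each group. None of these 3 passed the filter, and the other 5 genes of the list were not analysed here. Of 3 genes related to the esterase, 2 were tested and both were lower in fasted mice than in db/db mice, where 27.4% of all loci were lower. Bche, which encodes butyrylcholinesterase, averaged 1.20 ± 0.255, 1.88 ± 0.244 and 1.96 ± 0.623 FPKM in db/db-IF, db/db and db/m mice, and its log2 difference was -0.39 from db/db (adjusted p = 0.00144, limma) and -0.41 from db/m (adjusted p = 0.000618). Prima1, which anchors acetylcholinesterase in neuronal membranes, averaged 4.47 ± 0.528, 6.01 ± 0.843 and 6.04 ± 1.84 FPKM in these groups, with log2 differences of -0.36 (adjusted p = 0.0153) and -0.32 (adjusted p = 0.0221). Colq, the collagen tail gene, stayed below 0.243 FPKM.

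Among 8 tested chaperones and Ly6-family modulators of nicotinic receptors, 2 were lower and 1 was higher in db/db-IF than in db/db mice. Over all loci, 27.4% were lower and 23.7% were higher in that comparison. Ric3, a chaperone needed for alpha7 assembly, was lower by a log2 difference of -0.45 (adjusted p = 0.000147, limma), and Lypd6, a membrane-bound modulator, by -0.56 (adjusted p = 7.84e-06). Ly6h, which restrains alpha7 at the cell surface, was higher by 0.77 (adjusted p = 0.0178). The difference of Lypd6b was -0.19 (adjusted p = 0.133). Against db/m, 6 of the 8 were lower and 0 higher, where 29.4% of all loci were lower. Ric3 at -0.43 and Lypd6 at -0.67 were among the 6, and Ly6h at 0.31 did not pass (adjusted p = 0.322, limma). The median log2 difference of the list was -0.06 from db/db, against -0.02 over all loci.

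Of 20 tested genes of muscarinic signalling, 6 were lower and 0 higher in db/db-IF than in db/db mice, with a median log2 difference of -0.17 against -0.02 over all loci. Gnao1, the Go alpha subunit, differed by -0.29 (adjusted p = 8.41e-08, limma), Plcb1, the phospholipase C of the Gq branch, by -0.40 (adjusted p = 4.70e-06), Rgs4, a brake on Gq and Gi signalling, by -0.41 (adjusted p = 3.13e-05), and Gnai2, a Gi alpha subunit, by -0.12 (adjusted p = 0.00836). Against db/m, 5 were lower and 1 higher, where 29.4% of all loci were lower. Of 10 tested genes of choline supply, 2 were lower and 2 higher than in db/db mice. Chpt1, which makes phosphatidylcholine, was at -0.23 (adjusted p = 0.00124), Pcyt1a, the rate-limiting enzyme of that pathway, at -0.31 (adjusted p = 0.00361), the locus of the choline kinase gene Chkb, shared with Cpt1b, at 0.26 (adjusted p = 0.00557), and that of the phospholipase gene Pnpla6, shared with Mcoln1, at 0.20 (adjusted p = 0.00885). Over all loci, 27.4% were lower and 23.7% higher than in db/db mice, and the share lower in the signalling list (6 of 20) was near this.

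The genes next to Chrna7 were also looked up. The nearest genes in the annotation are A26c2 and the pseudogene Gm5333 on one side and 4930554H23Rik and Otud7a on the other. Gm5333 stayed below 0.0122 FPKM in every mouse. Otud7a, a deubiquitinase gene on chr7:63444745-63766232, was split over 8 loci, and its highest locus averaged 12.9 ± 4.62, 7.29 ± 1.92 and 6.40 ± 1.32 FPKM in db/db-IF, db/db and db/m mice. It was higher in db/db-IF mice by a log2 difference of 0.71 from db/db (SE 0.16, adjusted p = 0.000643, limma) and of 0.86 from db/m (SE 0.16, adjusted p = 4.72e-05). A26c2 and 4930554H23Rik were not analysed here.

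Within groups, the genes whose log2 values most resembled those of each member were sought among 11218 or 11219 loci with a single name, over the 31 mice. These correlations share libraries and are descriptions. Each gene was picked as having one of the largest values among that many loci, which by itself raises r. How much of r comes from this choice was not tested. For Chrna7 they were Dcun1d1 (r = 0.66), Pm20d2 (r = 0.635) and Gbas (r = 0.631), and for Chrna4 they were Ttc5 (r = 0.672), Cdc25b (r = 0.661) and Foxj1 (r = 0.65). Chrnb2 had the closest likeness, to March4 (r = 0.837), Cecr6 (r = 0.827) and Lonp2 (r = 0.82). Chrm2 was nearest to Pkd2l2 (r = 0.597), Chrm3 to Creg2 (r = 0.773), Chrm4 to Nrip2 (r = 0.662), Chrna5 to Kcns3 (r = 0.733) and Ache to Krt87 (r = 0.767). Among the members, Chrm1 and Chrm3 were most alike (r = 0.608), followed by Chrm3 and Chrnb2 (r = 0.502) and by Chrm1 and Chrm4 (r = 0.452).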

How the data were processed

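Total RNA of 31 whole hippocampi (10 db/db-IF, 10 db/db and 11 db/m mice, grouped by the labels) was sequenced by the authors. The study's own text divides these mice between db/db and db/db-IF differently from the labels, by 1 mouse, and the labels were followed. Per the submitters' processing notes, reads were trimmed with Trimmomatic 0.38, aligned with HISAT2 to GRCm38.p6 and assembled with StringTie 1.3.4d. The deposited table gives FPKM, computed by the authors, for 27094 loci, of which 1106 carry several gene names. The files give no read counts, so the reads behind a single FPKM are unknown and only the spread between mice measures precision. FPKM were used as log2(FPKM + 1). The 17139 loci above 1 FPKM in at least 10 mice were fitted with limma 3.58.1 (R 4.3.3), with a mean trend in the prior variance, no covariates and Benjamini-Hochberg adjustment over all of them. The code of the fit was run on simulated data with independent normal noise at each locus. Those data hold no gene with a high and a low level such as Chrna4, so the run says nothing about its p-values. Genes named were every member, the 3 genes most alike to a member, further nicotinic, cholinergic neuron and esterase genes, the 4 smallest adjusted p-values of other lists, and 2 neighbours on each side of Chrna7. The genes most alike to Chrm1 are not reported here. The members and lists were chosen with earlier results of these data known. Same-numbered mice did not deviate together (median r -0.02 over 29 pairs, 2 pairs above 0.1), so they were not treated as pairs. Within each group the numbers do follow the read-quality sets. Alternatives covered the pseudocount, filters, normalization, sample weights, read-quality sets, transcript-length slope, thalamic signal and each mouse left out. The labels give an age of 3 months, and the methods 4 months at the start of fasting.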

Additional observations from a re-analysis of the deposited data

Results flagged for a closer look

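Among the members in the 2 groups of 10 mice (20 groups of values), 3 had a lowest or highest mouse far from the others by Dixon's test at the 95% level on the log2(FPKM + 1) scale, and chance gives about 1 in 20. Chrna4 in db/db-IF mouse 2 was 8.49 FPKM, where the next highest fasted mouse had 2.14 FPKM. Chrna7 in db/db mouse 2 was 3.20 FPKM, where the next lowest db/db mouse had 17.9 FPKM. Chrna5 in db/db mouse 9 was 3.53 FPKM, where the next highest had 2.77 FPKM. On untransformed FPKM, a scale added after seeing the data, the same test also picked out the highest fasted mouse for Chrm3 (92.1 FPKM, next 78.0 FPKM). The 20 groups of values include Chrna7 in fasted mice, whose values chose the family. For that group the highest value (16.8 FPKM) and the next (6.56 FPKM) are a description with no test.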

How the results depend on the processing

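Leaving out each mouse in turn kept every member call of the 4 comparisons in its direction and ended none. In db/db-IF against db/m and db/db combined the count of members called was 3 to 5 over these fits. It was 5 without db/db-IF mouse 4 or 5, with 4 members lower (Chrna5 added) and Ache higher (0.13 and 0.12). Differences near 0 changed sign in them: Chrm1 of db/db-IF from db/m ran between -0.042 and 0.041, Chrm4 between -0.026 and 0.064, and Chrna7 of db/db from db/m between -0.27 and 0.014. With the transcript-length slope as a term the count of members called was 0 in each of the 3 fasted comparisons, and of the 17139 loci tested 314, 448 and 157 were called against db/db, against db/m and against both combined. The differences that changed sign with it were those of Ache (-0.11 from db/db, -0.077 from db/m and -0.098 from both combined), Chrm3 from db/m (0.012) and Chrm1 from db/m (-0.16). The slope does not overlap between db/db-IF and other mice, so that this fit leaves little to separate them. Within the lower read-quality set 2 members were called against db/db, and Chrna4, Chrm3 and Chrnb2 were called against db/m, as in the main fit. Within the higher set 1 was called against db/db and 0 against db/m. Each of these fits holds fewer mice. Signs turned in the higher set for db/db against db/m (Chrna4 0.22, Chrna7 0.041) and for Chrm1 against both combined (0.030), and in the lower set for db/db-IF against db/m (Chrm1 -0.10, Chrm4 -0.013, Chrna5 0.026). Quantile normalization gave 6 members called against both combined, and Chrm1 at -0.21 from db/m. Chrm1 from db/m was also below 0 with array weights (-0.0084), with the thalamus and habenula mean as a term (-0.10) and, a choice made after the values were seen, without db/m mice 2 and 11 (-0.050), where Chrm4 was -0.040. With a library-size term Chrm1 against both combined was 0.019. The cause of these changes was not tested. Within the comparison in which its sign turned, Chrm3 alone of these members had passed the test.

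The replicate block, a term for the replicate number, left the count of members called at 4 against db/db, 3 against db/m and 0 in db/db against db/m, and changed no member's call. The pairing check found 2 of 29 same-numbered pairs above a correlation of 0.1 and 2 mice closest to their own number. Over all loci, db/db against db/m gave 472 calls with the block, 985 without it, 2067 with array weights, 1734 with the length slope, 610 with the thalamus and habenula mean, 518 without db/m mice 2 and 11, 363 at an adjusted p under 0.01, and 272 and 1 in the lower and higher read-quality sets.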
